A study of Oryctolagus cuniculus with 24 samples.

Results

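A set of 10 genes that encode adaptor proteins of focal adhesions and stress fibres were followed in primary rabbit corneal keratocytes: TLN1, VCL, PXN, ZYX, FLNA, ACTN1, PDLIM5, PDLIM7, FHL1 and FHL2. They were chosen by gene name, and all 10 were found among the 23428 genes of the deposited count table and among the 13308 genes with enough counts to be tested. Keratocytes are the resident cells of the corneal stroma, and here all cells were primary cells at first passage, seeded in serum-free medium on glass coated with collagen and harvested after 6 days. One group of 8 libraries stayed in serum-free medium, which the labels call the keratocyte condition. A second group of 8 received serum-free medium with 5 ng/mL TGF-β1 from day 1, the myofibroblast condition. The last group of 8 stayed in serum-free medium until day 3 and then received DMEM with 10% fetal bovine serum (FBS), the fibroblast condition. Serum, base medium and length of exposure all set the FBS group apart and cannot be told apart from one another. The labels used here give no strain, age or number of rabbits, and no label says that the libraries came from separate animals or cultures, so the p-values measure the spread between these libraries, which may be technical.

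Focal adhesions join the extracellular matrix to the actin cytoskeleton. Integrins bind the matrix outside the cell, talin binds the integrin tail and actin, vinculin strengthens that link, and paxillin and zyxin are scaffolds with LIM domains that recruit signalling and actin-assembly proteins. Filamin and α-actinin cross-link the actin filaments that end at the adhesion, while the PDZ-LIM proteins (PDLIM5 and PDLIM7) and the LIM-only FHL proteins sit along the filaments and bind α-actinin, kinases and transcription factors. In the cornea, keratocytes that become fibroblasts or myofibroblasts during wound repair are known for building larger adhesions and stress fibres.

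Total counts per library ran from 15410285 to 22528261, and every member had at least 100 counts in every library. The libraries are numbered 5 to 12 in each condition, and numbers 5 to 8 (set 1, replicates 1 to 4) stood apart from numbers 9 to 12 (set 2, replicates 5 to 8) on principal component 3 in all 3 conditions. No label says what the numbers stand for, so values within each set are given where they differ. Neighbouring FBS libraries formed close pairs: the mean chi-square per gene, where counting noise alone gives a value near 1, was 2.80 between FBS replicates 1 and 2, 3.36 between 3 and 4, 7.27 between 5 and 6 and 3.02 between 7 and 8, against 44.5 to 164 between replicate 5 or 6 and any FBS library outside that pair. Serum-free neighbours were less close (16.7, 10.6, 10.9 and 17.7 in the same order), and the closest serum-free libraries were replicates 2 and 3 (7.03). TGF-β1 replicates 1 and 2 were at 17.7. TGF-β1 replicates 3 and 4 (5.06), 5 and 6 (3.32) and 7 and 8 (3.67) were closer. Unlike in the FBS group, TGF-β1 replicates 5 and 6 were also near 7 and 8 (6.21 to 10.3). The number of separate units may therefore be below 8, and p-values that count 8 may then be too small. With neighbouring replicates summed in pairs, 8, 10 and 8 of the 10 members were called in the 3 comparisons, and the calls lost were those of ZYX with TGF-β1 (adjusted p = 0.06) and of VCL between the treatments (adjusted p = 0.167). The share of all genes called on these sums is not given here, so the counts of members have no background. The exact tests of ratios below were not repeated on these sums. Within set 2, FBS replicates 5 and 6 were the lowest FBS libraries for VCL, TLN1, FLNA, PDLIM5 and FHL1. They were the highest FBS libraries for ZYX, PDLIM7 and FHL2. The 5 keratocyte markers (KERA, LUM, ALDH1A1, CD34 and OGN) summed to 39930 to 67210 CPM (counts scaled to library size) in serum-free medium, 6798 to 12480 with TGF-β1 and 896 to 1975 with FBS, and all 5 fell in both treatments. The summed level of 6 epithelial markers ran from 0.28 to 1.27 CPM in the serum-free, 0.59 to 2.6 in the TGF-β1 and 3.04 to 5.86 in the FBS libraries. KRT12 was at 0 in all 24 libraries, and TP63, the 1 epithelial marker with enough counts to be tested, rose in both treatments (means of 0.33, 1.26 and 4.49 CPM). KRT3, KRT5 and CDH1 had lower means in both treatments than in serum-free medium, so the rise of the sum was that of TP63. The 5 immune markers summed to 2.81 to 5.23, 5.38 to 8.41 and 11.3 to 25.8 CPM in the same order. Of these, only CD68 had enough counts to be tested, and it rose in both treatments (means of 2.35, 6.63 and 18.3 CPM). PTPRC, CD74, TYROBP and CYBB had lower means in both treatments than in serum-free medium. PTPRC, the pan-leukocyte marker, was at most 0.35 CPM in any library. The sum of the 5 vascular markers moved the other way, from 246.5 to 368 CPM down to 52.2 to 113.5 and 13.9 to 19.0 CPM. KDR made up most of it, with means of 305, 72.9 and 13.5 CPM. CDH5 (means of 13.1, 6.10 and 1.93 CPM), VWF (0.93, 0.27 and 0.05) and TEK (0.22, 0.08 and 0.01) were also lower in both treatments. PECAM1 went up (means of 0.07, 0.28 and 0.68 CPM) but was at most 1.31 CPM in any library. The 5 muscle markers summed to 0.45 to 3.35, 0.67 to 1.93 and 1.24 to 3.46 CPM, with MYOD1 and MYOG at 0. Markers of the corneal endothelium are not reported here. The part of other cell types in the results below was not tested, and in bulk RNA fewer cells of a type and less RNA per cell cannot be told apart.

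Set side by side per gene length, on the deposited FPKM scale (fragments scaled to gene length and library size), the members spanned levels from high to modest. In serum-free medium the highest mean levels were those of ZYX (86.4 FPKM ± 21.8, mean ± SD, 8 libraries), FLNA (73.5 ± 8.55), TLN1 (59.1 ± 4.28) and ACTN1 (43.9 ± 3.92). PDLIM7 (21.3 FPKM ± 1.95), VCL (19.3 ± 4.65) and PDLIM5 (11.5 ± 2.30) followed. PXN, FHL2 and FHL1 were lowest at 4.93, 4.91 and 4.59 FPKM, and the libraries of these 3 genes overlapped. Only the steps from TLN1 to ACTN1, from ACTN1 to PDLIM7 and from PDLIM5 to PXN separated all libraries of neighbours in this order.

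With TGF-β1 the order changed at the top: FLNA (134 FPKM ± 14.9) and PDLIM7 (128 ± 19.7) overlapped and stood above ACTN1 (85.5 ± 10.6), TLN1 (79.3 ± 2.56), ZYX (64.0 ± 6.16) and VCL (51.6 ± 10.4). FHL1 was last at 5.20 FPKM ± 1.58, below PXN in all 8 libraries. With FBS, FLNA (247 ± 68.9) and ACTN1 (166 ± 17.1) led. FHL2, at rank 9 in serum-free medium, reached 126 FPKM ± 15.6 and overlapped there with PDLIM7, ZYX and TLN1. FLNA with FBS was above 98.0% of all genes tested on this scale, against 94.3% in serum-free medium, and FHL2 went from above 39.8% to above 95.5%.

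**Figure D1:**
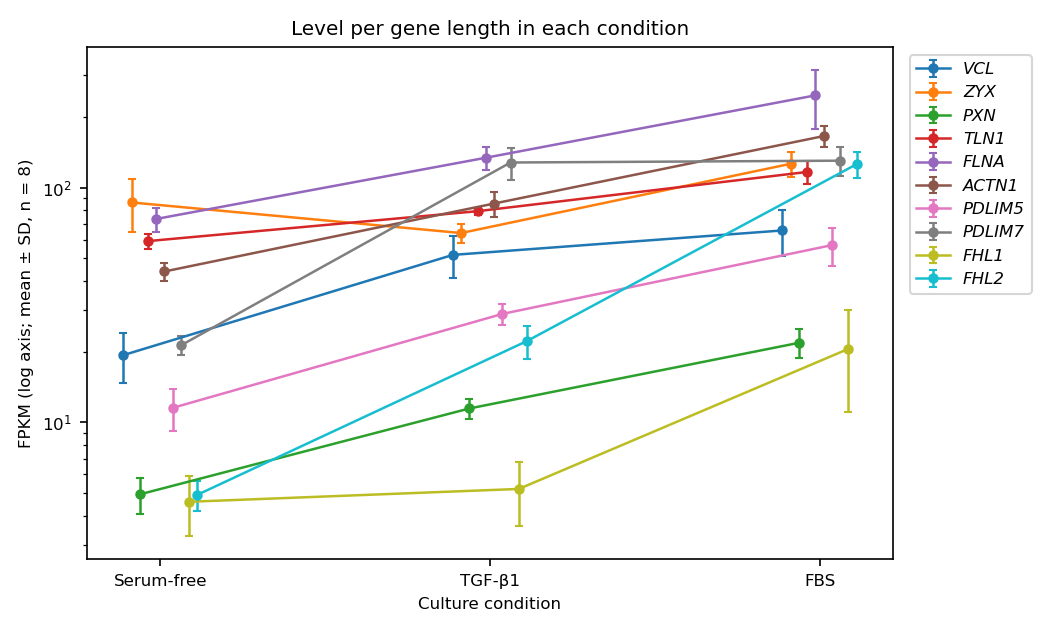
Mean level of each member in FPKM (vertical axis, log scale) by condition (horizontal axis); bars are SD over 8 libraries, and lines join the values of 1 gene. FHL2 and PDLIM7 cross several other members, and FHL1 is lowest in all 3 conditions.

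The first question was how the members differed between the 3 culture conditions. With TGF-β1, 8 of the 10 members rose against serum-free medium, ZYX fell and FHL1 did not pass the test. PDLIM7, a scaffold of stress fibres, rose most, 6-fold, followed by FHL2 (4.51-fold), VCL (2.68-fold), PDLIM5 (2.51-fold) and PXN (2.31-fold). A gene counted as risen or fallen at an adjusted p under 0.05 in edgeR's quasi-likelihood test over all genes. By that rule 31.2% of all genes tested were higher and 33.1% lower. The median log2 fold change of the members was 1.08, against -0.03 for all genes tested. At least 2-fold changes were seen in 5 members, but the share of all genes at that cutoff is not given here. All 8 that rose had no library in common range with serum-free medium, which held upwards for 17.3% of all genes.

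With FBS all 10 members rose against serum-free medium, where 39.5% of all genes tested were called higher and 40.5% lower. FHL2 rose most, 25.7-fold, and ZYX least, 1.46-fold. The median log2 fold change was 2.03 against -0.04 for all genes. Of the 10, 8 rose at least 2-fold, again without a share of all genes to set beside it. No member's FBS libraries overlapped with its serum-free libraries, which held upwards for 27.2% of all genes. The members together took 0.163% of all counts in the median serum-free library, 0.259% with TGF-β1 and 0.629% with FBS. The ranges over libraries were 0.148% to 0.183%, 0.238% to 0.290% and 0.437% to 0.690%, and did not overlap.

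Set directly against FBS, TGF-β1 gave lower levels of 9 members, where 36.4% of all genes tested were called lower and 36.9% higher, and PDLIM7 did not pass the test. The median log2 difference was -0.95 against 0.01 for all genes. FHL2 and FHL1 were lower by at least 2-fold, and the share of all genes at that cutoff is not given here either. In 7 members the TGF-β1 libraries lay below all FBS libraries, which held for 23.8% of all genes, and VCL, FLNA and PDLIM7 overlapped. The 3 comparisons share their libraries and so are not independent of each other. In the main fit the median log2 fold change of all genes was -0.03, -0.04 and 0.01 in the 3 comparisons. Scaling by total counts alone gave medians of -0.17, 0.21 and -0.39. Under that scaling the share of called genes that were higher went from 48.5% to 37.5% for TGF-β1 against serum-free medium and from 50.4% to 31.5% for TGF-β1 against FBS. PDLIM7 was then also lower with TGF-β1 than with FBS (log2 difference -0.43, adjusted p = 0.000226), and no other member changed its call.

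**Figure D2:**
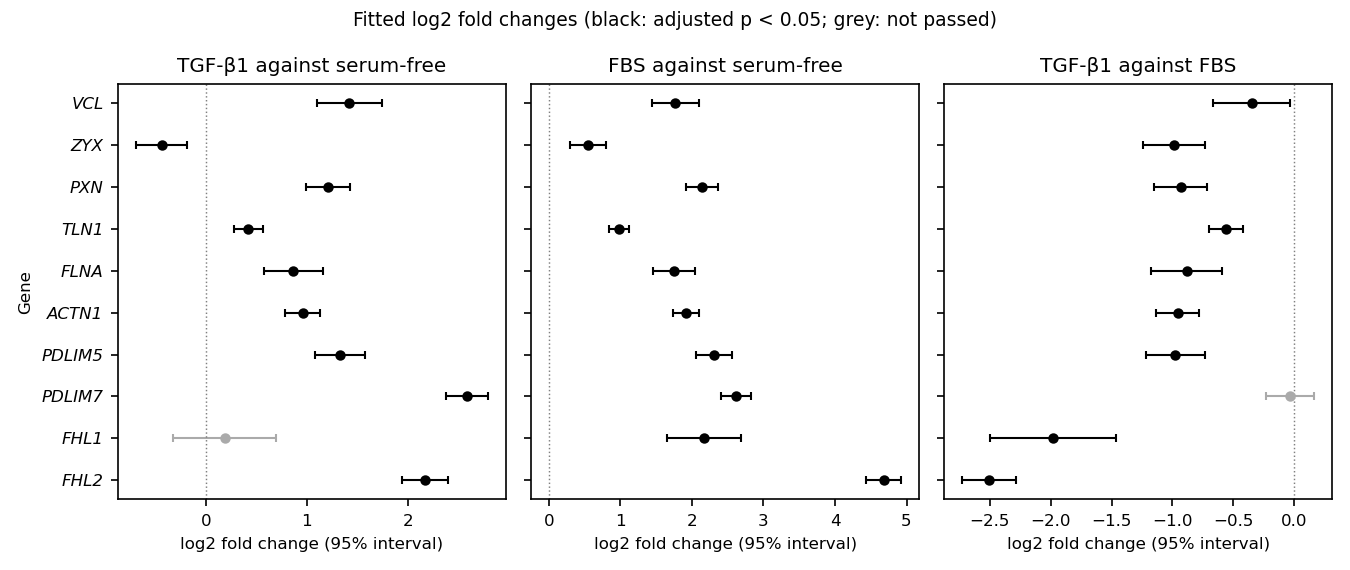
Log2 fold change of each member (points, horizontal axis) with its 95% interval in the 3 comparisons, from the edgeR fit over 24 libraries. Apart from ZYX with TGF-β1, points lie to the right of 0 against serum-free medium and to the left of 0 for TGF-β1 against FBS. The intervals of FHL1 with TGF-β1 and of PDLIM7 between the treatments include 0.

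Talin 1 is the direct link from the integrin tail to actin. TLN1 (chromosome 1, 18204528 to 18236852, plus strand, in the table's coordinates, for which no build is named) had 451, 501 and 558 CPM as its lowest, median and highest serum-free library. The same values were 630, 671 and 703 CPM with TGF-β1 and 802, 1003 and 1116 CPM with FBS. The 3 groups formed 3 steps with no overlap. The log2 fold change was 0.42 (SE 0.07, edgeR adjusted p = 8.65e-06) with TGF-β1 and 0.98 (SE 0.07, edgeR adjusted p = 1.03e-12) with FBS, and the TGF-β1 level was lower than the FBS level by a log2 value of -0.56 (edgeR adjusted p = 6.19e-08). Whether counting used strand is not given. A row on the opposite strand inside TLN1 held 0 to 45 counts per library, against 8029 to 29076 for TLN1. The row of GNG10, also on that strand, has a listed span that covers TLN1 and held 180 ± 33.0, 200 ± 31.0 and 153 ± 14.9 CPM in the serum-free, TGF-β1 and FBS groups (mean ± SD, 8 libraries each). Reads shared between these rows cannot be told apart here.

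VCL encodes vinculin, which is recruited to stretched talin and reinforces the bond to actin. It lies on chromosome 18 at 13366948 to 13498179 on the minus strand. Its lowest, median and highest libraries were 73.3, 107.5 and 134 CPM in serum-free medium, 212, 288 and 355 CPM under TGF-β1, and 236, 389 and 436 CPM with FBS. Every treated library was above every serum-free library, while FBS replicates 5 and 6, at 236 and 259 CPM, lay within the TGF-β1 range. VCL rose by a log2 fold change of 1.42 with TGF-β1 (SE 0.16, edgeR adjusted p = 1.4e-08) and by 1.77 with FBS (SE 0.16, edgeR adjusted p = 1.06e-10). Between the treatments the difference was small (log2 -0.35, SE 0.15, edgeR adjusted p = 0.0451). That call was lost when any 1 of TGF-β1 replicates 5 to 8 or FBS replicates 1 to 4, 7 or 8 was left out (adjusted p = 0.0518 to 0.0934), yet it was made within set 1 (-0.33, adjusted p = 1.98e-05) and likewise within set 2 (-0.38, adjusted p = 0.0151). The 3 other rows annotated as vinculin-like held at most 10 counts in any library.

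Paxillin is a scaffold for kinases and exchange factors at the adhesion. PXN (chromosome 21, 12301942 to 12352860, plus strand) had a lowest, median and highest level of 24.5, 32.5 and 39.9 CPM in serum-free medium, 59.8, 77.2 and 85.0 CPM under TGF-β1, and 121, 144 and 172 CPM with FBS. As for TLN1, the groups did not overlap. Log2 fold changes were 1.21 with TGF-β1 (SE 0.11, edgeR adjusted p = 1.64e-10) and 2.14 with FBS (SE 0.11, edgeR adjusted p = 7.21e-16), and TGF-β1 against FBS gave -0.93 (edgeR adjusted p = 9.02e-09). The rise with FBS was larger in set 1 (2.56) than in set 2 (1.76), and the difference passed the test over all genes (edgeR adjusted p = 2.75e-05).

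Zyxin, which marks mature adhesions and stress fibres under tension and recruits VASP, was the 1 member that fell with TGF-β1. ZYX (chromosome 7, 8711447 to 8719712, minus strand) was at 124, 193 and 251 CPM (lowest, median and highest library) in serum-free medium, at 126, 146.5 and 157 CPM under TGF-β1, and at 255, 269 and 352 CPM with FBS. The TGF-β1 libraries lay inside the wide serum-free range, and all FBS libraries lay above it. The pooled log2 fold change with TGF-β1 was -0.44 (SE 0.12, edgeR adjusted p = 0.00335). It differed between the sets: -0.01 in set 1 (adjusted p = 0.927) against -0.78 in set 2 (adjusted p = 5.7e-06), with a set-by-treatment difference of -0.77 (edgeR adjusted p = 0.00036). The sets were apart in serum-free medium, at 124 to 170 CPM in set 1 and 217 to 251 CPM in set 2, whereas with TGF-β1 the sets overlapped at 126 to 157 and 129 to 156 CPM. With FBS the rise was 0.55 (SE 0.12, edgeR adjusted p = 0.00026), made of 0.82 in set 1 and 0.36 in set 2. ZYX was lower with TGF-β1 than with FBS in both sets (pooled -0.99, edgeR adjusted p = 8.7e-08).

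**Figure D3:**
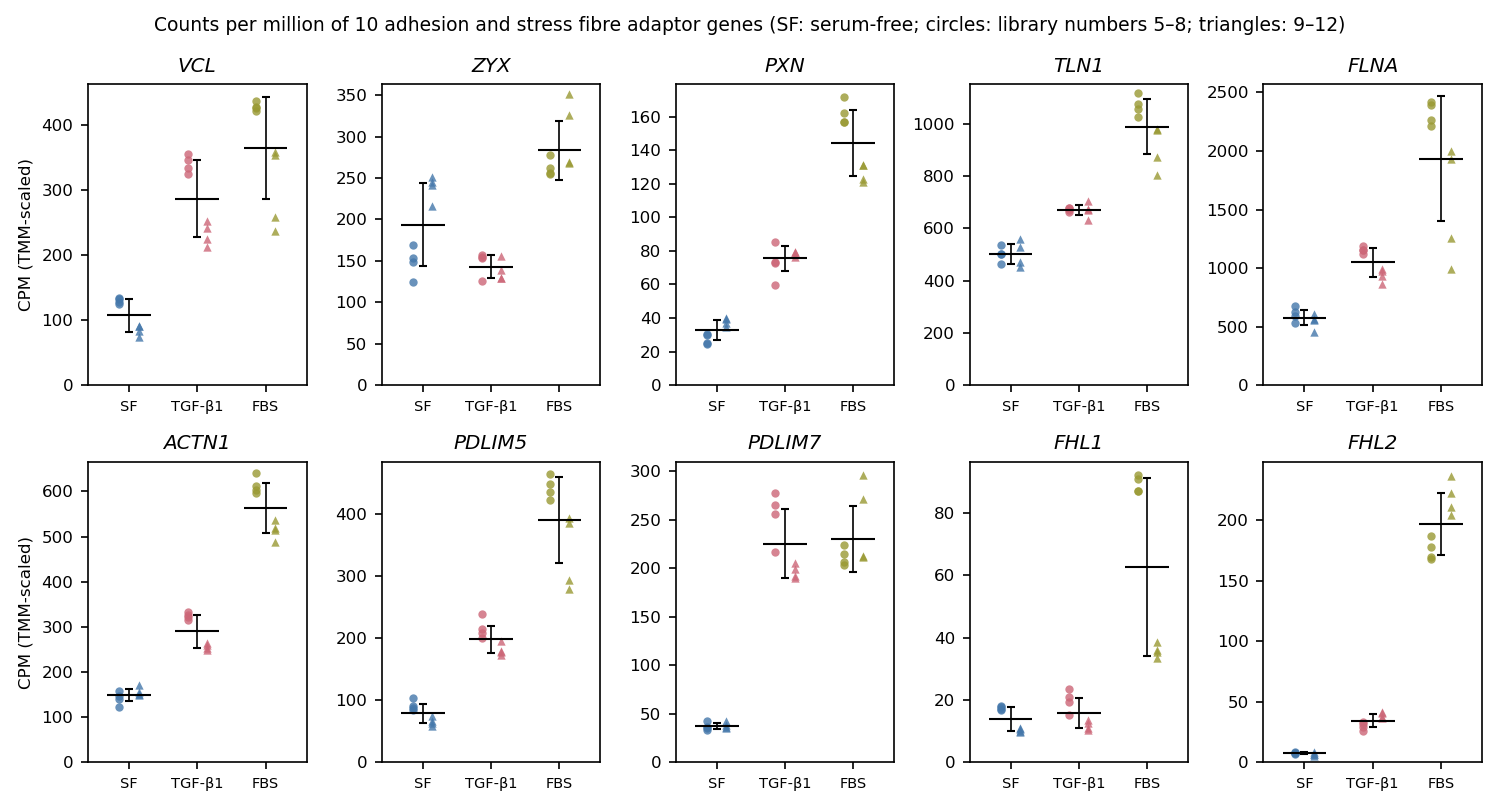
CPM of each member in every library (points) by condition, with the mean and SD over 8 libraries; circles and triangles mark the sets of library numbers, and each panel has its own vertical axis from 0. TLN1, PXN and ACTN1 form 3 separate steps, FHL1 with FBS splits into 87.0 to 92.3 CPM in set 1 and 33.5 to 38.7 CPM in set 2, and the TGF-β1 libraries of ZYX lie within its serum-free range.

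Filamin A cross-links actin filaments into networks and binds integrin tails. FLNA (unplaced scaffold Un0118, 188727 to 210500, plus strand) had 456, 577 and 677.5 CPM as the lowest, median and highest serum-free library, 868, 1056 and 1189 CPM under TGF-β1, and 996, 2110 and 2417 CPM with FBS. FBS replicate 5 (996 CPM) lay within the TGF-β1 range and replicate 6 (1258 CPM) just above it, while the other FBS libraries were at 1932 CPM or more. FLNA rose by 0.86 in log2 with TGF-β1 (SE 0.14, edgeR adjusted p = 7.39e-06) and by 1.75 with FBS (SE 0.14, edgeR adjusted p = 2e-11), and differed by -0.88 between TGF-β1 and FBS (edgeR adjusted p = 3.57e-06). Without FBS replicates 5 and 6 the rise with FBS was 1.95 and the difference between the treatments -1.08. A second row annotated as filamin A lies on the same scaffold (170570 to 177065, minus strand). It had 142 ± 24.5, 208 ± 29.8 and 404 ± 99.6 CPM in the serum-free, TGF-β1 and FBS groups (mean ± SD, 8 libraries each), so the reads of FLNA may be split between these rows. Summed with it, FLNA gave log2 fold changes of 0.81, 1.70 and -0.90 in the 3 comparisons.

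ACTN1 encodes α-actinin 1, the cross-linker that spaces filaments in stress fibres and ties them to vinculin and zyxin. It lies on chromosome 20 at 3287439 to 3390015 on the plus strand. The lowest, median and highest libraries had 122, 150 and 172 CPM in serum-free medium, 249, 289 and 333 CPM under TGF-β1, and 487, 567 and 640 CPM with FBS. No groups overlapped. It rose by a log2 fold change of 0.96 with TGF-β1 (SE 0.08, edgeR adjusted p = 2.07e-10) and 1.92 with FBS (SE 0.09, edgeR adjusted p = 7.41e-17), and TGF-β1 was below FBS by -0.96 (edgeR adjusted p = 1.08e-10). The TGF-β1 rise was 1.19 in set 1 and 0.71 in set 2, a difference that passed the test (edgeR adjusted p = 0.00123).

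The PDZ-LIM proteins PDLIM5 (also called ENH) and PDLIM7 (enigma) hold α-actinin and actin through their PDZ domain and kinases through their LIM domains. PDLIM5 (chromosome 15, 55255635 to 55476917, minus strand) had lowest, median and highest libraries of 59.3, 80.3 and 103 CPM in serum-free medium, 174, 198 and 239 CPM under TGF-β1, and 280, 409 and 465 CPM with FBS. These were 3 separate steps. Its log2 fold changes were 1.33 with TGF-β1 (SE 0.12, edgeR adjusted p = 2.85e-10), 2.31 with FBS (SE 0.12, edgeR adjusted p = 2.32e-15) and -0.98 for TGF-β1 against FBS (edgeR adjusted p = 3.88e-08).

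PDLIM7 (chromosome 3, 57989477 to 58004028, minus strand) followed another pattern, with 33.0, 36.7 and 42.7 CPM as its lowest, median and highest serum-free library, 190, 211 and 278 CPM under TGF-β1, and 204, 213.5 and 296 CPM with FBS. Both treated groups were far above serum-free medium and overlapped each other over most of their range. The log2 fold changes were 2.58 (SE 0.10, edgeR adjusted p = 2.04e-17) and 2.62 (SE 0.10, edgeR adjusted p = 3.71e-18). The difference between the treatments was -0.03 in log2 with a 95% interval of -0.23 to 0.17 (edgeR adjusted p = 0.78). Within the sets it had opposite signs, 0.25 in set 1 (adjusted p = 0.0101) against -0.34 in set 2 (adjusted p = 0.00975), and the sets differed by -0.59 (edgeR adjusted p = 0.00289). Without FBS replicates 5 and 6 the pooled difference was 0.078 (adjusted p = 0.427). In set 1 TGF-β1 gave 217 to 278 CPM and FBS 204 to 224 CPM, and in set 2 TGF-β1 gave 190 to 205 CPM and FBS 211 to 296 CPM.

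FHL1 and FHL2 are LIM-only proteins that are best known from muscle, where they bind the sarcomere, integrins and transcription factors. FHL1 (chromosome X, 110697912 to 110742423, plus strand) had 9.89, 14.02 and 18.0 CPM as lowest, median and highest library in serum-free medium, 10.5, 14.3 and 23.6 CPM under TGF-β1, and 33.5, 62.9 and 92.3 CPM with FBS. TGF-β1 and serum-free libraries overlapped, and all FBS libraries were higher than either. The log2 fold change with TGF-β1 was 0.18 (95% interval -0.33 to 0.70, edgeR adjusted p = 0.53), with FBS it was 2.17 (SE 0.25, edgeR adjusted p = 1.46e-08), and TGF-β1 against FBS gave -1.98 (SE 0.25, edgeR adjusted p = 8.6e-08). FHL1 carried the widest spread of the 10 members with FBS, an SD of 45.7% of the mean. The sets did not overlap in any condition: 16.9 to 18.0 against 9.89 to 11.1 CPM in serum-free medium, 15.1 to 23.6 against 10.5 to 13.5 CPM under TGF-β1, and 87.0 to 92.3 against 33.5 to 38.7 CPM with FBS. The rise with FBS was called in each set, 2.36 in set 1 and 1.80 in set 2, and the TGF-β1 change in neither (0.18 and 0.20, adjusted p = 0.145 and 0.112).

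FHL2 (chromosome 2, 86920463 to 87003564, plus strand), also shuttles to the nucleus and is a known partner of SRF and β-catenin. Its lowest, median and highest serum-free libraries had 5.62, 7.70 and 8.91 CPM, against 25.6, 35.1 and 41.2 CPM with TGF-β1 and 168, 195 and 237 CPM with FBS. The 3 groups were far apart. FHL2 rose by 2.17 in log2 with TGF-β1 (SE 0.11, edgeR adjusted p = 3.06e-15) and by 4.68 with FBS (SE 0.12, edgeR adjusted p = 1.01e-21), and was lower with TGF-β1 than with FBS by -2.51 (SE 0.11, edgeR adjusted p = 4.16e-17). Both rises were somewhat larger in set 2 (2.43 and 4.92) than in set 1 (1.90 and 4.44), each with an adjusted p of 0.0188 for the difference (edgeR).

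The sets of library numbers moved several members within a condition. In serum-free medium the sets did not overlap for 5 members, in 3 of them with set 2 lower (VCL, PDLIM5 and FHL1) and in 2 with set 2 higher (ZYX and PXN), where 37.1% of all genes had sets apart. With TGF-β1 this held for 7 members, with FHL2 higher in set 2 and VCL, FLNA, ACTN1, PDLIM5, PDLIM7 and FHL1 lower (33.0% of all genes), and with FBS for 8, with FHL2 higher and the other 7 lower (43.2% of all genes). FHL1, VCL and PDLIM5 were lower in set 2 in all 3 conditions. Over the 10 members with FBS, the Spearman correlation of gene length with the difference between sets was -0.53, and over all genes it was -0.44. It was -0.08 over the members and -0.28 over all genes in the serum-free libraries, and 0.08 and -0.16 in the TGF-β1 libraries. The part of gene length in these differences was not tested.

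**Figure D4:**
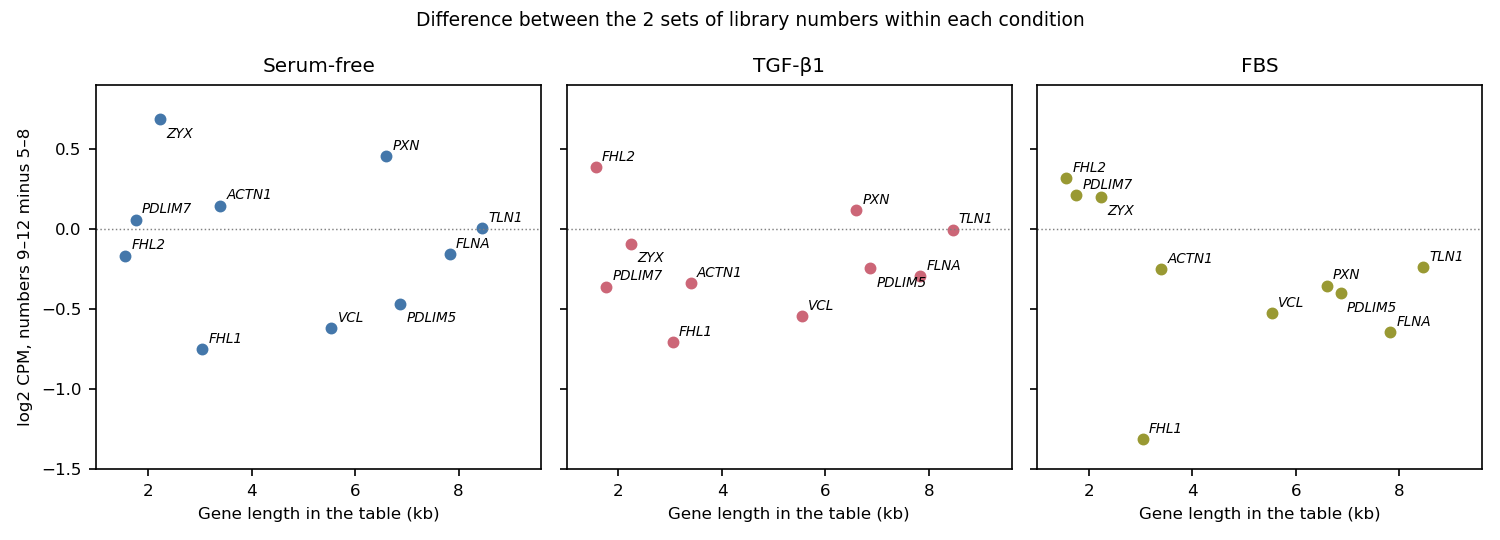
Difference in log2 CPM between library numbers 9 to 12 and 5 to 8 (vertical axis) against the gene length listed in the count table (horizontal axis, kilobases) for each member, in 3 panels by condition. FHL1 lies lowest in every panel, at -0.75, -0.71 and -1.31, and ZYX in serum-free medium highest, at 0.68.

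A treatment-by-set difference was called for 3 members with TGF-β1 against serum-free medium (10.3% of all genes), for 5 with FBS against serum-free medium (22.4%) and for 3 with TGF-β1 against FBS (23.9%). TLN1, VCL, FLNA and PDLIM5 were called in none of these tests. Apart from PDLIM7 between the treatments, where the signs were opposite, and ZYX with TGF-β1, where set 1 alone gave no call, each called comparison of a member was also called in the same direction within each set.

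Members of 1 protein family did not always move alike. The log2 ratio of 2 family members, per gene length and within each library, was compared between conditions for 7 pairs, of which 6 are described here, with an exact two-sided permutation test over 8 against 8 libraries, and p-values were adjusted over the 21 tests. The smallest p this design allows is 0.000155. It is 0.0286 within 1 set of library numbers (adjusted 0.0333 in set 1 and 0.0375 in set 2). With libraries paired by number it is 0.00781 (adjusted 0.0103). Adjusted p-values of these designs are therefore not comparable in size. Talin 1 outweighed talin 2 in all conditions, and the log2 ratio of TLN1 to TLN2 went from 3.31 ± 0.15 in serum-free medium to 4.47 ± 0.27 under TGF-β1 and 6.17 ± 0.47 with FBS (mean ± SD, 8 libraries each, exact permutation adjusted p = 0.000272 in every comparison). While TLN1 rose, TLN2 fell by -0.73 in log2 with TGF-β1 and by -1.86 with FBS.

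For the α-actinins, the log2 ratio of ACTN1 to ACTN4 was -0.66 ± 0.08 in serum-free medium and -0.66 ± 0.18 with FBS (exact permutation adjusted p = 0.958), but -1.26 ± 0.19 with TGF-β1 (0.000272 against either). ACTN4 rose by 1.55 with TGF-β1, against 0.96 for ACTN1, and by 1.91 with FBS, against 1.92.

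Between the PDZ-LIM members, the log2 ratio of PDLIM7 to PDLIM5 was 0.91 ± 0.36 in serum-free medium, 2.14 ± 0.19 under TGF-β1 and 1.21 ± 0.47 with FBS. TGF-β1 was above both (exact permutation adjusted p = 0.000272 and 0.00176), and FBS against serum-free medium did not pass (0.207; 0.029 when libraries were paired by number). The difference between the treatments was not called in set 2 alone (0.56, adjusted p = 0.106). FHL2 and FHL1 were near parity per length in serum-free medium (log2 ratio 0.14 ± 0.36), and the ratio rose to 2.13 ± 0.60 with TGF-β1 and 2.75 ± 0.88 with FBS (exact permutation adjusted p = 0.000272 for both). The treatments did not pass against each other (0.16; 0.0103 when paired, and called within each set).

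TGFB1I1 encodes Hic-5, a paxillin relative that was more abundant per length than PXN throughout. The log2 ratio of PXN to TGFB1I1 rose from -2.60 ± 0.29 to -1.74 ± 0.26 with TGF-β1 and -1.32 ± 0.31 with FBS (exact permutation adjusted p = 0.000272 for both). TGF-β1 against FBS passed at 0.0191, but not when paired (0.13) nor in set 2 (0.06 in log2, adjusted p = 0.343). The log2 ratio of ZYX to LPP, its relative, was 3.14 ± 0.71, 2.68 ± 0.40 and 3.63 ± 0.85 in the 3 conditions, and only TGF-β1 against FBS passed (exact permutation adjusted p = 0.00653, against 0.16 and 0.256 for the treatments against serum-free medium; FBS reached 0.0103 when paired). Within the sets, TGF-β1 against serum-free medium was called in set 2 (-0.80, exact permutation adjusted p = 0.0375), and FBS against serum-free medium in set 1 (0.47, exact permutation adjusted p = 0.0333). LPP itself was called in no comparison.

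**Figure D5:**
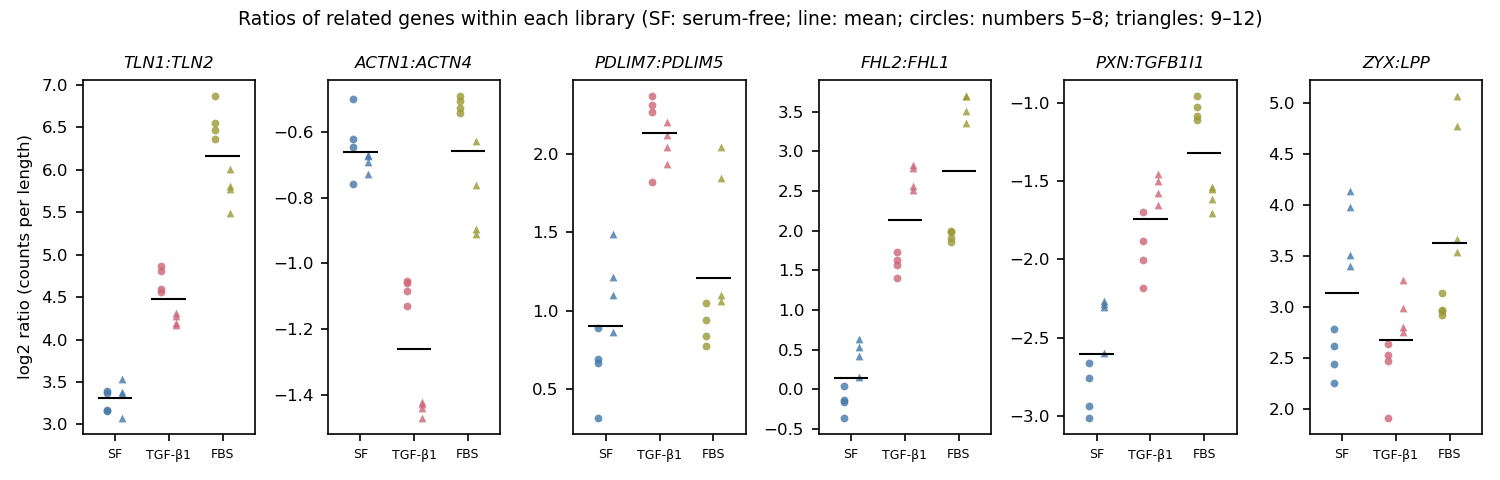
Log2 ratio of counts per gene length of 2 related genes in every library (points, vertical axis) by condition, in 1 panel per pair; the line is the mean of 8 libraries, and circles and triangles mark the sets of library numbers. TLN1 to TLN2 climbs in steps from serum-free medium to FBS, and ACTN1 to ACTN4 is low with TGF-β1 alone.

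The wider family of the members moved in both directions. Its counts and those of the lists that follow are to be read against all genes tested, of which 31.2% rose and 33.1% fell with TGF-β1, 39.5% rose and 40.5% fell with FBS, and 36.9% were higher and 36.4% lower with TGF-β1 than with FBS. Of 18 tested paralogues, 8 rose and 4 fell with TGF-β1 (median log2 fold change 0.28), 10 rose and 6 fell with FBS (0.53), and 9 were higher and 6 lower with TGF-β1 than with FBS (0.28). As shares, 44.4% rose with TGF-β1 and 55.6% with FBS. Of 25 tested integrin-proximal genes, which activate integrins or signal from them, 8 rose and 3 fell with TGF-β1 (median 0.08), and 9 rose and 10 fell with FBS (median 0.05). With TGF-β1 against FBS 8 were higher and 4 lower. The 32% of this list that rose with TGF-β1 is close to the 31.2% of all genes, and its shares with FBS (9 and 10 of 25) are close to 39.5% and 40.5%. The 3 of 25 that fell with TGF-β1 are a smaller share than the 33.1% of all genes. So are the 4 of 25 that were lower with TGF-β1 than with FBS, against 36.4%. BCAR1, the scaffold p130Cas, rose in both treatments, from 57.0 ± 8.75 CPM to 284 ± 28.3 under TGF-β1 and 260 ± 21.2 with FBS (mean ± SD, 8 libraries each). Its relative NEDD9 rose by 2.41 in log2 with TGF-β1 and 1.27 with FBS. The tensin TNS2 fell by -3.22 and -1.92, and LIMS2, a LIM partner of integrin-linked kinase, rose by 1.37 with TGF-β1 and fell by -2.05 with FBS. CRK and RSU1 were called in no comparison.

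Among 23 tested genes of actin bundling and elongation at adhesions, 12 rose and 6 fell with TGF-β1 (median log2 fold change 0.50), 11 rose and 9 fell with FBS (0.20), and 10 were higher and 10 lower between the treatments. With FBS, where 39.5% of all genes rose and 40.5% fell, and between the treatments, at 36.9% and 36.4%, these shares are near those of all genes. With TGF-β1, 52.2% of the list rose against 31.2% of all genes. LIMCH1, an activator of non-muscle myosin, was at 20.1 ± 6.71 CPM in serum-free medium, rose to 264 ± 30.4 with TGF-β1 and fell to 4.39 with FBS. The LIM protein gene CSRP2 also rose with TGF-β1 (1.48) and fell with FBS (-1.68). The formin gene DIAPH3 rose by 5.78 in log2 with FBS, from 1.92 ± 1.09 to 106 ± 26.5 CPM. With TGF-β1 it rose by 0.88 to 3.53 ± 0.38 CPM. ABLIM3 fell from 1.94 ± 0.87 CPM to at most 0.40 CPM in every treated library. SYNPO2 was called in no comparison.

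SRF and its cofactors of the MRTF family drive many actin and adhesion genes. Of 11 tested genes of that list, 7 rose and 2 fell with TGF-β1 (median log2 fold change 0.65) and 9 rose and 2 fell with FBS (1.19), and 4 were higher and 5 lower with TGF-β1 than with FBS. The shares that rose were 63.6% against 31.2% of all genes with TGF-β1 and 81.8% against 39.5% with FBS, and between the treatments 36.4% were higher against 36.9% of all genes. ACTB, β-actin, rose from 1336 ± 263 CPM to 2418 ± 524 with TGF-β1 and 7143 ± 551 with FBS, by 0.86 and 2.42 in log2. ACTA2 rose by 6.29 and 7.35, and TAGLN by 6.91 and 6.24. The cofactor MYOCD was at a low level in every group but was among the called genes of this list. Its mean was 0.46 CPM in serum-free medium, lower with TGF-β1 (0.09 CPM) and higher with FBS (1.93 CPM).

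Over all 24 libraries the log2 CPM of pairs of members correlated at 0.10 to 0.97 (45 pairs, median 0.86). These points share their condition. After the condition means were removed the range was -0.79 (ZYX and PDLIM5) to 0.93 (VCL and PDLIM5) with a median of 0.05, and 24 of the 45 pairs were positive. Libraries also share set and depth, so these values are a description. For each member, the 2 named genes closest in log2 CPM over the 24 libraries were picked by Pearson correlation, which the differences between conditions dominate. PDLIM7 was closest to YWHAH (0.993) and TPM2 (0.991), and TPM2, a tropomyosin of actin filaments, had mean levels of 19.6, 218 and 223 CPM in the serum-free, TGF-β1 and FBS groups, beside 37.5, 225 and 230 for PDLIM7. MCUB (0.994) was among the genes closest to FHL2. FHL1 was closest to RAD23B (0.973) and FERMT2 (0.970), the gene of the integrin activator kindlin 2. VCL was closest to VGLL3 (0.983) and MAN2A1 (0.981), and GPX1 (0.968) was among the genes closest to ZYX. TACC1 was among the closest genes of both TLN1 (0.988) and FLNA (0.981), with GANAB (0.986) and PTPN11 (0.984) the others. PXN was closest to MAP2K1 (0.988) and LOXL4 (0.988), ACTN1 to DNAJC11 (0.989) and CAV2 (0.989), and PDLIM5 to MCU (0.993) and ELL2 (0.992).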

How the data were processed

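RNA of 24 libraries from rabbit keratocytes, 8 per condition, was analysed from the deposited count table, whose values are raw whole-number counts per gene, and from the deposited FPKM table, which the authors scaled by gene length and library size, per the file headers and values. The aligner, counter, strand setting, annotation and genome build are not stated in the labels or headers. Groups were taken from the labels. Members were matched by gene name. The members and gene lists were chosen with earlier results of these data known.

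Counts were fitted in edgeR 4.0.16 (R 4.3.3) with TMM scaling, filterByExpr by condition (13308 genes) and 1 coefficient per condition. P-values of the quasi-likelihood F-tests received the Benjamini-Hochberg adjustment over all 13308 genes, and a gene was called at an adjusted p under 0.05. CPM use TMM library sizes. Each set of library numbers was also fitted alone, with its own filter, and a set-by-treatment term was tested over all libraries. Levels of different genes were compared in FPKM. Ratios of related genes used counts per length with a pseudocount of 0.5 counts. Correlations used log2 CPM with a prior count of 2. The fits were tested on simulated counts. Every library differed from the others by more than counting noise (the lowest chi-square per gene within a condition was 2.80), but some neighbouring libraries were close, and each was still counted as 1.

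Same-numbered libraries had residuals that correlated in every pair, by 0.177 to 0.362 (TGF-β1 and serum-free), 0.115 to 0.429 (FBS and serum-free) and 0.103 to 0.332 (TGF-β1 and FBS). The main tests did not pair libraries by number, and a replicate block was an alternative. The sets of library numbers share in these values.

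Named genes are all 10 members, any tested paralogue, up to 4 called genes of each of the other lists with the largest change and up to 2 called in none with the highest mean CPM, and the 2 genes nearest each member. Of 154 listed genes, 9 were not analysed here, and 5 were matched by RefSeq gene number or older symbol. DESeq2 1.42.0 and limma 3.58.1 on log2(FPKM + pseudocount) served as alternatives. Some results of these lists, ratios and nearest genes are not reported here.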

Additional observations from a re-analysis of the deposited data

Results flagged for a closer look

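In 11 cases a member's treatment effect differed between library numbers 9 to 12 and 5 to 8 by the set-by-treatment term of edgeR, adjusted over all genes. Values are the log2 effect in numbers 9 to 12 minus that in 5 to 8. For TGF-β1 against serum-free medium these were ZYX (-0.77, adjusted p = 0.00036), ACTN1 (-0.48, adjusted p = 0.00123) and FHL2 (0.54, adjusted p = 0.0188). For FBS against serum-free medium they were PXN (-0.81, adjusted p = 2.75e-05), ACTN1 (-0.39, adjusted p = 0.00381), FHL1 (-0.56, adjusted p = 0.00545), ZYX (-0.47, adjusted p = 0.0144) and FHL2 (0.47, adjusted p = 0.0188). For TGF-β1 against FBS they were PDLIM7 (-0.59, adjusted p = 0.00289), FHL1 (0.59, adjusted p = 0.00386) and PXN (0.46, adjusted p = 0.0064). No label says what the library numbers stand for, and the cause of these differences was not tested.

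In none of the 30 groups of 8 libraries (10 members in 3 conditions) did a single library lie far enough from the others to pass Dixon's critical value. That test can miss libraries that lie apart together, such as FBS replicates 5 and 6 for FLNA or the sets for FHL1 with FBS.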

How the results depend on the processing

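The number of members called was 8 to 9 for TGF-β1 against serum-free medium, 10 for FBS against serum-free medium and 8 to 10 for TGF-β1 against FBS over 39 alternatives each (scaling, filters, DESeq2, limma on FPKM, each set alone, and leaving out each of 24 libraries). The counts of all genes called ranged from 7148 to 9693, 10132 to 12718 and 8797 to 10743. PDLIM7 between the treatments changed sign in 4 of them: 0.25 in library numbers 5 to 8, 0.078 without FBS replicates 5 and 6, and 0.026 and 0.0024 without FBS replicate 5 or 6 alone, with -0.081 to 0.026 over the libraries left out in turn. It was called lower with total counts as the scaling (-0.43) and in numbers 9 to 12 (-0.34). VCL between the treatments lost its call in 16 of 39 (adjusted p up to 0.167), and ZYX with TGF-β1 in numbers 5 to 8 (-0.01) and with neighbouring replicates summed in pairs (-0.41, adjusted p = 0.06). The pairs and the sum of both filamin A rows were chosen after seeing the data. With the replicate block 9385, 11104 and 10311 genes were called and no member changed its call, while 6 ratios of related genes in place of 4 passed for FBS against serum-free medium. Over 20 alternatives, 5 to 7, 4 to 6 and 5 to 7 of the 7 ratios passed. Depth limits FHL1 and FHL2 most, with as few as 162 counts per TGF-β1 library and 100 per serum-free library.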
